A study of Coffea canephora with 12 samples.

Results

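The 91 genes described here were switched up after induction of somatic embryogenesis in leaves of *Coffea canephora* (Robusta coffee) and remained up at each of the 3 induction time points. They were chosen from the 25574 annotated genes of the count files by their values in the same 12 libraries, as counts scaled to 1000000 reads in genes per library (CPM) with 0.5 added. For each of them the lowest of the 6 libraries after induction was at least 4 times the highest of the 6 libraries before it. In addition, the mean levels of the 3 time points after induction (1 DAI, 2 DAI and 21 DAI, in days) differed by less than 4-fold. The first condition alone was met by 112 genes, the second removed 21 of them, and the 91 that were left are 0.356% of all genes. The difference between the stages is therefore how the genes were found, and it is given below as a description without a test.

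In somatic embryogenesis, cells of a vegetative tissue return to division and form embryos without fertilization. In coffee, leaf explants are usually led there by an auxin and a cytokinin, and the explant meets the wound of cutting, a new medium and new growth conditions together before any embryo is visible. RNA was sequenced at 6 time points, with 2 libraries at each. At 14 days before induction (DBI) leaves came from plantlets kept in MS salts with no growth regulator, and these are the control. At 9 and 0 DBI the plantlets grew in MS salts with the auxin naphthaleneacetic acid and the cytokinin kinetin. At 1, 2 and 21 DAI the material was leaf explants in Yasuda salts with the cytokinin benzyladenine. Cutting, medium, regulators and culture conditions changed between 0 DBI and 1 DAI all at once, so their parts in any difference between the stages cannot be told apart.

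By the series' design text, both libraries of a time point are technical sequencing replicates from 1 biological sample. Each p-value below therefore measures the spread between libraries and not between plants. Reads in genes ran from 10091539 to 36525500 per library, and the level that 0 reads still leave possible was 0.0821 to 0.297 CPM per library (3 counts; this covers counting error only). At 14 DBI, 0 DBI, 2 DAI and 21 DAI, replicate 1 had 17.6% to 20.3% of its reads at low mapping quality, whereas the other 8 libraries had 11.2% to 12.7%. Fewer genes had reads at 9 DBI (17204 and 17809) and 1 DAI (18199 and 19116) than at the other time points (19833 to 22257). The gene identifiers were not paired with a description in the sources used here, so the genes are given by locus, and the labelled leaf tissue was not checked against its marker genes. CPM is not scaled for gene length, so levels are compared between libraries and not between genes.

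Summed over the 91 genes, the level was 386 and 426 CPM in the 2 libraries of 14 DBI, 299 and 239 CPM at 9 DBI, and 341 and 563 CPM at 0 DBI. After induction it was 12324 and 12629 CPM at 1 DAI, 13092 and 15040 CPM at 2 DAI, and 13013 and 10375 CPM at 21 DAI. The stages did not overlap, which the choice of the genes fixes. The means were 375 ± 113 CPM before induction and 12746 ± 1501 CPM after it (SD, 6 libraries each), and the lowest sum after induction was 18.4 times the highest before it. The 91 genes thus went from 0.0239% to 0.0563% of the reads in genes to between 1.04% and 1.504% of them. In bulk tissue, a change in the share of cells that express a gene and a change in RNA per cell cannot be told apart.

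**Figure D1:**
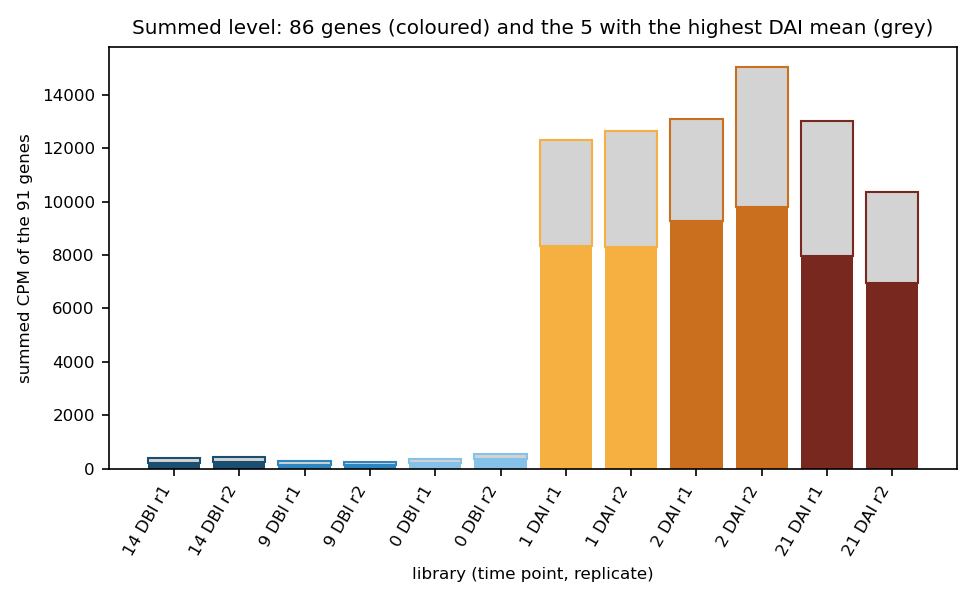
Summed level of the 91 genes in each of the 12 libraries (bars, CPM, linear axis from 0; r1 and r2 are the replicates). Grey shows the 5 genes with the highest mean after induction and colour the other 86; the 6 libraries before induction lie between 239 and 563 CPM and the 6 after it between 10375 and 15040 CPM.

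A few genes carried much of this sum. The 5 with the highest mean after induction (Cc08_g14230, Cc06_g00570, Cc02_g18030, Cc10_g14500 and Cc03_g08480, named after their values were seen) held 33.8% of the reads of the 91 genes after induction, and the first 10 held 49.2%. Without those 5 the sum was 130 to 341 CPM before induction and 6969 to 9810 CPM after it. The rule holds for each gene, so that any part of the set has to show this gap.

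The ratio of the lowest value after induction to the highest before it ranged from 4.003 to 81.7, with a median of 7.80. It was at least 10 for 32 genes, at least 20 for 12 and at least 50 for 6. The lowest level after induction ran from 1.88 to 679 CPM (median 36.5), and the highest level before it from 0.0362 to 98.2 CPM (median 2.82). Not all of the genes were off before induction. The highest library before induction was under 1 CPM for 25 genes and over 10 CPM for 18, and 27 genes had reads in each of the 6 libraries. No gene was at 0 in all 6. In reads, the 91 genes had 1 to 9001 over the 6 libraries before induction (median 173) and 553 to 159897 over the 6 after it (median 10015). Over all 25574 genes, the lowest library after induction lay above the highest before it for 1625, or 6.35%, and the 91 are the part of these with the widest gap and a steady level.

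**Figure D2:**
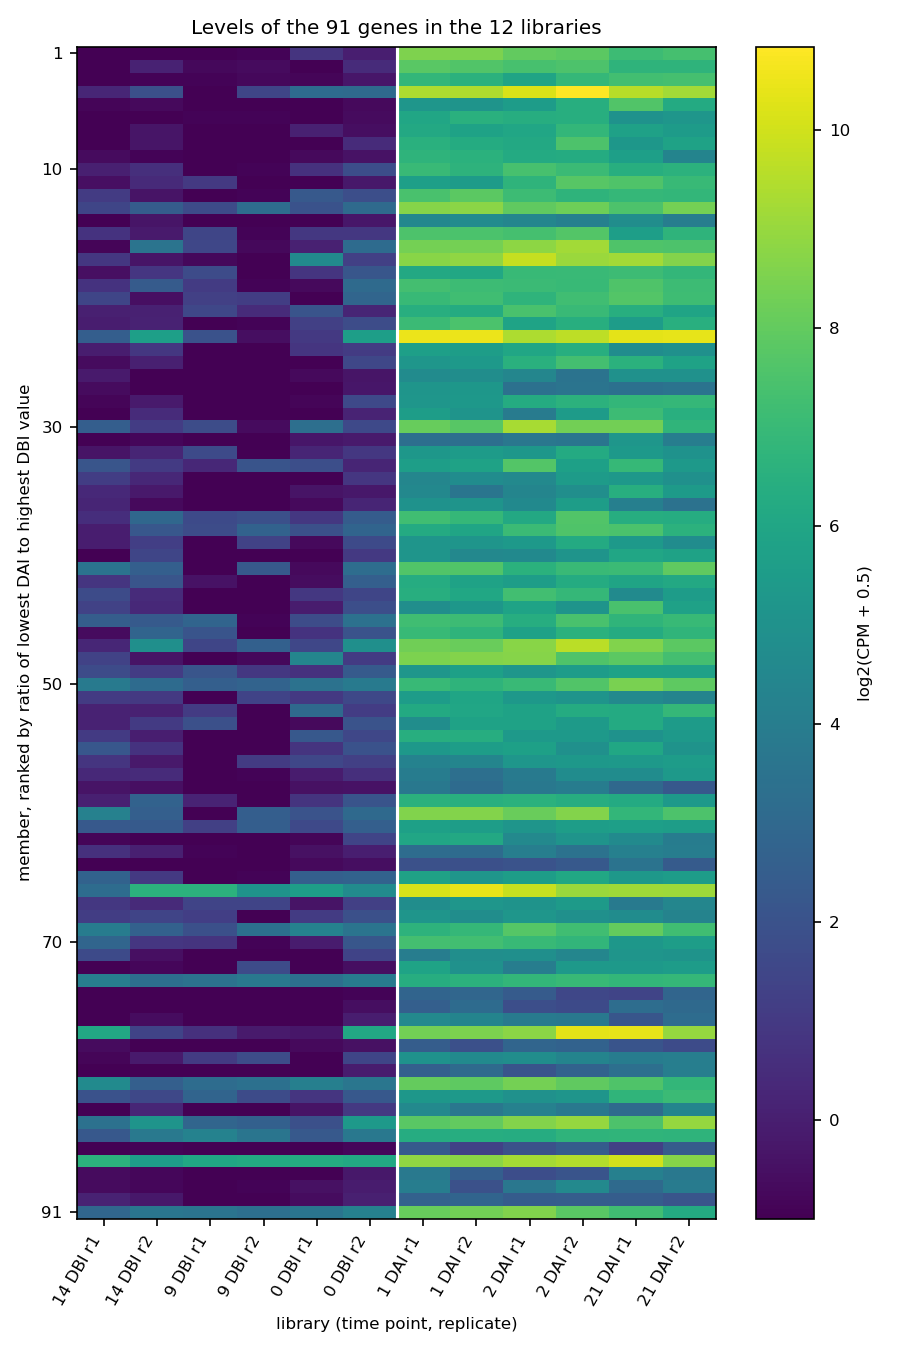
Level of each of the 91 genes (rows, ranked by the ratio of the lowest value after induction to the highest before it) in the 12 libraries (columns), as log2(CPM + 0.5). The white line parts the 6 DBI from the 6 DAI libraries; the largest ratio is at the top (81.7) and the smallest at the bottom (4.003), and several rows near the bottom are already well above 0 CPM before induction.

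The widest gap was that of Cc05_g06170, a gene of 455 bp on chromosome 5. It was at 0 CPM in both libraries of 14 DBI, at 0 and 0.0447 CPM at 9 DBI and at 1.20 and 0.507 CPM at 0 DBI. At 1 DAI it was at 378 and 368 CPM, at 2 DAI at 257 and 231 CPM, and at 21 DAI at 138 and 165 CPM. The libraries at 1 DAI were the highest and those at 21 DAI the lowest of the induction stage, with no overlap between its time points. In reads, this gene went from 37 over the 6 libraries before induction to 36123 over the 6 after it.

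Cc05_g08990, also on chromosome 5, had 0 to 0.869 CPM before induction (median 0.116). After induction it was at 226 and 199, then 167 and 185, then 103 and 102 CPM at the 3 time points. The order of the time points was the same as in Cc05_g06170, without overlap. Cc08_g12780 on chromosome 8 was instead highest at 21 DAI. It had 0 to 0.326 CPM before induction, 114 and 93.4 CPM at 1 DAI, 60.1 and 118 CPM at 2 DAI, and 151 and 165 CPM at 21 DAI, so that the last time point lay above the other two, which overlapped.

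Cc06_g00570 on chromosome 6 was the only 1 of these 10 genes whose level passed 500 CPM. Before induction it had 0.723 and 3.26 CPM, then 0 and 2.28 CPM, then 8.34 and 8.04 CPM. It had 677 and 682 CPM at 1 DAI, 1166 and 1836 CPM at 2 DAI, and 769 and 584 CPM at 21 DAI. Its highest libraries were thus those of 2 DAI, and before induction those of 0 DBI. Cc06_g01100, on the same chromosome, had at most 0.114 CPM before induction, from 7 reads in all. Its levels after induction were 36.4 and 34.8, then 46.4 and 86.6, then 198 and 75.9 CPM, and the ratio of its means (3.81) was close to the limit of 4.

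Cc02_g07930 on chromosome 2 had 6 reads over the 6 libraries before induction, 4 of them in replicate 2 of 0 DBI, and 9745 over the 6 after it. It was at 63.3 and 89.9 CPM at 1 DAI, at 81.9 and 86.4 CPM at 2 DAI, and at 32.6 and 36.9 CPM at 21 DAI. The last time point was the lowest. The other 4 of the 10 genes with the largest ratios were Cc04_g15400 (ratio 42.9), Cc02_g34380 (27.9), Cc06_g13730 (27.2) and Cc06_g17390 (24.6). Their medians after induction were 59.4, 73.5, 77.0 and 116 CPM, in this order, and their highest levels before induction were 0.545, 0.869, 0.253 and 2.97 CPM. Cc06_g13730 had its lowest library after induction at 21 DAI, where the replicates differed most (50.2 and 19.98 CPM).

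**Figure D3:**
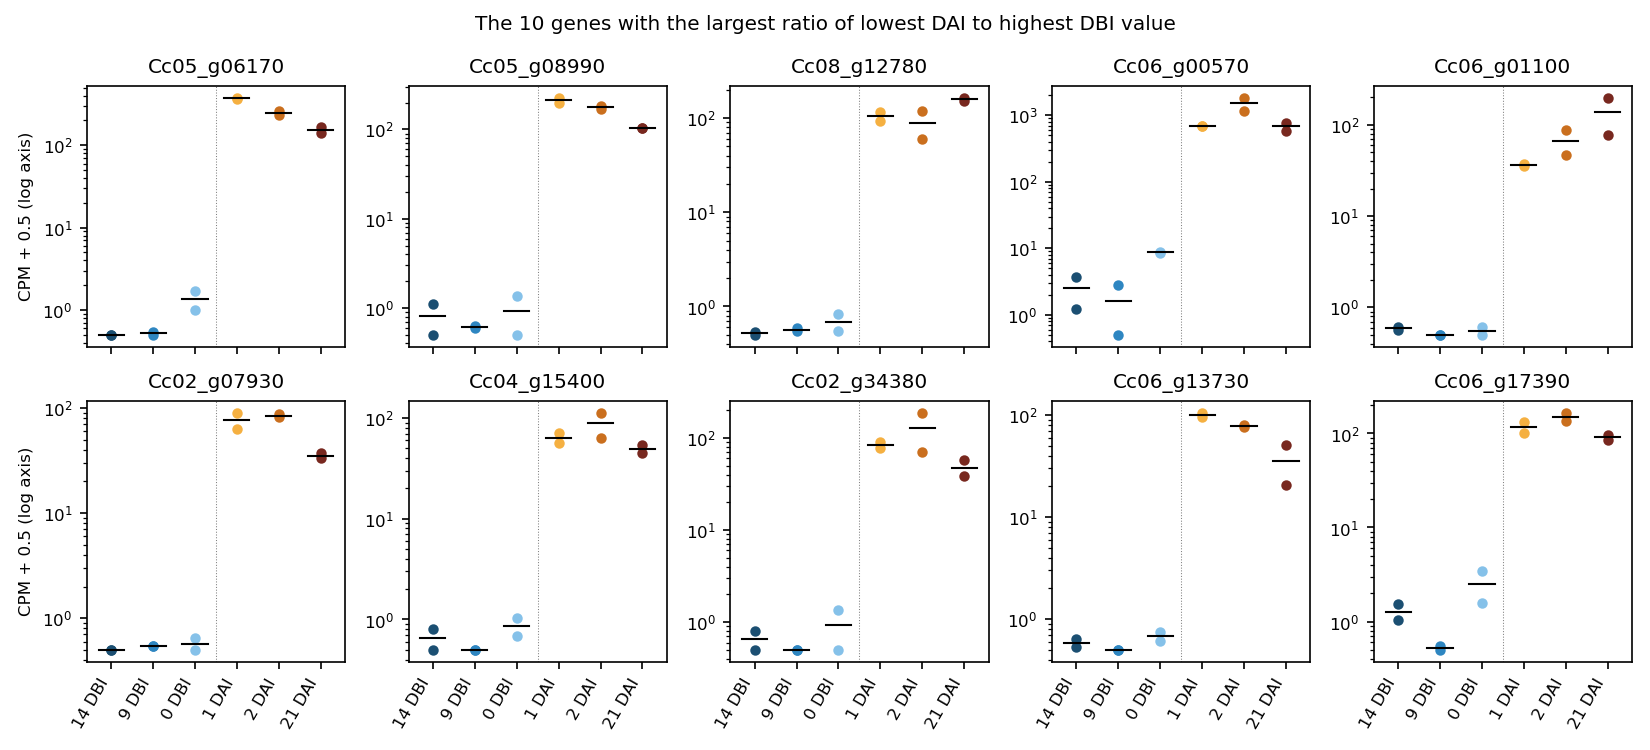
The 10 genes with the largest ratio of the lowest DAI to the highest DBI value: CPM + 0.5 on a log axis by time point, with 1 point per library and a bar at the mean of the 2 libraries. In each panel the 3 DBI time points lie at the bottom and the 3 DAI time points at the top; Cc05_g06170 and Cc05_g08990 are highest at 1 DAI and Cc08_g12780 at 21 DAI.

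At the edge of the choice the genes differed little from those just outside it. Cc11_g14160 (4.08), Cc07_g13910 (4.02) and Cc02_g34900 (4.003) had the smallest ratios inside it, and Cc10_g10160 (3.99), Cc08_g10760 (3.96) and Cc08_g02690 (3.91) the largest outside it. For Cc02_g34900 the highest library before induction was 18.1 CPM and the lowest after it 73.9 CPM. For Cc10_g10160 these were 14.3 and 58.7 CPM. On the limit of steadiness, Cc06_g01100 (3.81) and Cc05_g05100 (3.98) lay just inside, and Cc08_g15270 (4.02) and Cc03_g13710 (4.04) just outside. Cc03_g13710 had a ratio of 9.43 and was dropped because it was at 222 and 241 CPM at 1 DAI and at 53.4 to 64.3 CPM afterwards.

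The same rule was also applied to replicate 1 alone and its genes read in replicate 2, and the reverse. Replicate 1 alone gave 177 genes, and in 164 of them (92.7%) the lowest library after induction lay above the highest before it in replicate 2, against 15.5% of all genes. Replicate 2 alone gave 180 genes, of which 174 (96.7%) did so in replicate 1, against 13.1% of all genes. The median ratio in the libraries not used was 4.41 and 5.32, where over all genes it was 0.678 and 0.623. Both lists shared 85 genes, or 48.0% of the first and 47.2% of the second. By the design text the replicates are sequencing replicates of 1 sample, and a high share is what such replicates would give. The libraries of a time point nevertheless differed beyond sampling noise. These values describe agreement between libraries only, and the shares over all genes are not a comparison at equal level.

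The level of the 91 genes before induction was not the same at the 3 time points. Their median was 0.657 and 0.795 CPM in the libraries of 14 DBI, 0 and 0.0447 CPM at 9 DBI, and 0.436 and 2.24 CPM at 0 DBI. The lowest mean of the 3 time points was that of 9 DBI for 65 genes, and the highest was that of 0 DBI for 59. From 14 to 9 DBI, 67 genes had a lower mean and 20 a higher one, with a median difference of -0.40 in log2(CPM + 0.5), against -0.10 over all 20745 genes that passed the filter on low counts. From 9 to 0 DBI, 79 genes had a higher mean and 12 a lower one, with a median difference of 0.73, against 0.03 over all genes tested. These differences share the libraries of 9 DBI. By the fitted changes of the test below, 66 of the 91 genes and 56.0% of all genes tested were lower at 9 than at 14 DBI. From 9 to 0 DBI, 82 of the 91 and 58.8% of all genes tested were higher. At which time point the mean was lowest or highest was not counted over all genes.

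**Figure D4:**
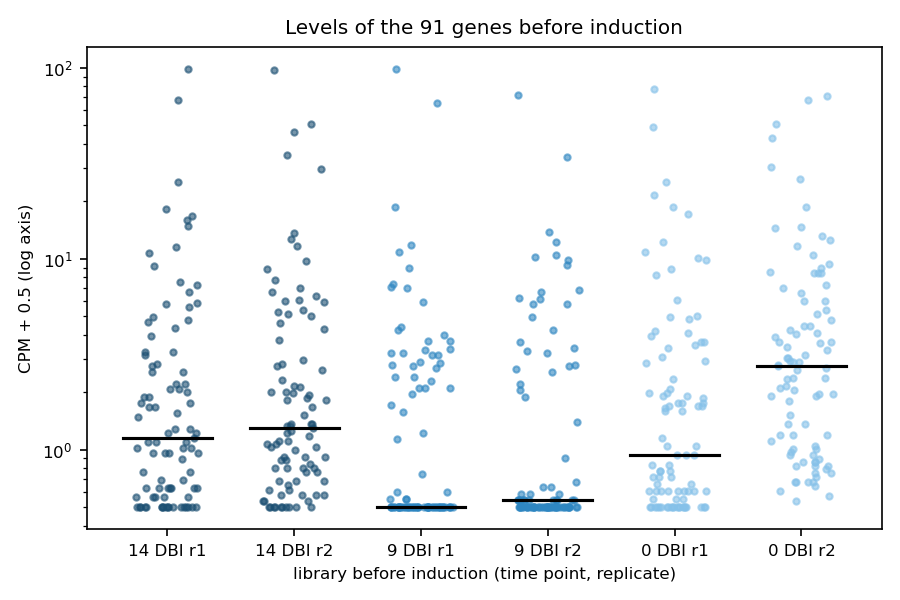
Levels of the 91 genes in the 6 libraries before induction (CPM + 0.5, log axis; 1 point per gene, bar at the median). The median is lowest in the libraries of 9 DBI (0 and 0.0447 CPM) and highest in replicate 2 of 0 DBI (2.24 CPM).

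At 9 DBI, 33 genes (36.3%) had no read in either library, against 10.5% of all genes tested, whereas at 14 DBI there were 6 (1.28% of all genes tested) and at 0 DBI 0 (1.11%). Both libraries of 9 DBI lay below the other 4 of the stage for 21 genes (23.1%; 13.0% of all genes tested). Both libraries of 0 DBI lay above the other 4 for 12 genes (13.2%; 3.61% of all genes tested) and below them for 0 (4.16%). The libraries of 9 DBI lay above the other 4 for 1 gene (8.66% of all genes tested), and those of 14 DBI lay above for 2 (7.02%) and below for 2 (3.44%). The rule favours low levels before induction, so these counts are not a comparison with all genes at equal level. Among genes at a mean of 0.1 to 3 CPM over 14 and 0 DBI, 28 of 57 of the set (49.1%) and 35.3% of all had no read at 9 DBI. The libraries of 9 DBI also had the fewest genes with reads of all 12 libraries, and the part of this in the low values of the 91 genes was not tested.

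Replicate 2 of 0 DBI was the highest of the 6 libraries before induction for 43 genes (47.3%), against 16.6% of all genes tested. It was also the only library before induction in which each of the 91 genes had reads, while 10 to 48 of them were at 0 in the others. Within 0 DBI it lay above replicate 1 for 74 of the genes and below it for 17, a count not made over all genes. It also had the most reads in genes before induction (27628703, against 18336495 in replicate 1) and the most genes with reads (21843, against 19833). Over all genes its median was 9.12 CPM, against 6.41 CPM in replicate 1. The part of this in the values of the 91 genes was not tested. The typical fold between the libraries of a time point was 1.94 at 0 DBI, 1.79 at 14 DBI and 1.10 at 9 DBI (medians over the 91 genes, 0.5 CPM added). The value at 9 DBI is set by the 0.5 CPM added, since 48 and 44 of the genes were at 0 there. Among members at a mean of 10 CPM or more, the fold was 1.87 at 0 DBI (13 genes), 3.28 at 14 DBI (11) and 1.27 at 9 DBI (5). Over all genes at this mean, the fold was 1.49 at 0 DBI, 1.43 at 14 DBI and 1.41 at 9 DBI. After induction it was 1.16, 1.38 and 1.46 for the 91 genes at 1, 2 and 21 DAI. Without replicate 2 of 0 DBI the rule took 118 genes, the 91 among them.

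Differences between time points of a stage were tested over 20745 genes with the quasi-likelihood F test of edgeR, and called at a Benjamini-Hochberg adjusted p under 0.05. From 14 to 9 DBI, 7 of the 91 genes were called lower and 0 higher. Of all genes tested, 0.501% fell and 0.0337% rose (0.535% in all). From 9 to 0 DBI, 7 were called higher and 0 lower, against 0.13% of all genes called higher and 0.0% lower. All 91 passed the filter on low counts, which their levels after induction alone would allow, and the rule kept their levels before induction low. The shares over all genes are therefore given as background, not as a comparison at equal level. No change of the 91 genes as a set is drawn from these calls. With a replicate block 0 and 1 of the 91 were called in these comparisons (0.0819% and 0.00964% of all genes). With a term for low mapping quality it was 1 and 1 (0.0819% and 0.00482%). At an unadjusted p under 0.05 there were 34 and 47 genes, of which 32 fell and 46 rose, where 12.7% of all genes fell and 11.8% rose in these comparisons. The F test over the 3 time points before induction called 1 of the 91 (0.0241% of all genes). Each of these calls rests on the libraries after induction as well, through the common estimate of the spread. Leaving out any 1 of the 6 DAI libraries left 0 of the 91 genes called in all 3 tests, and 0 to 5 genes called over the whole genome in both comparisons of time points. From 14 to 9 DBI, 1 gene was called without replicate 1 of 14 DBI (0.0327% of all genes) and 2 without replicate 2 of 9 DBI (0.201%). From 9 to 0 DBI, 14 were called without replicate 1 of 9 DBI (2.53% of all genes) and 13 without replicate 1 of 0 DBI (0.472%). In the F test, 0 were called without replicate 2 of 9 DBI (0.00936% of all genes). Without each of the other 5 DBI libraries it was 5 to 10 (0.0841% to 0.787%).

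The genes named for these changes had no read at 9 DBI. Their folds set the mean of the other time point against 3 counts per library at 9 DBI. They are lower bounds for that mean and not for each library of it. The adjusted p beside each is edgeR's for any difference between the time points and does not test the fold. Cc06_g15800 on chromosome 6 had 4.14 and 1.17 CPM at 14 DBI, 0 in both libraries of 9 DBI, and 1.20 and 3.40 CPM at 0 DBI. It was at least 18.2-fold lower at 9 than at 14 DBI (edgeR, adjusted p = 0.0483). Its level after induction was among the steadiest of the set, with 39.7 and 47.4, then 53.0 and 30.7, then 66.7 and 33.1 CPM, and means within 1.19-fold. Cc01_g14110 on chromosome 1 had 2.76 and 0.871 CPM at 14 DBI, 0 at 9 DBI, and 1.42 and 2.24 CPM at 0 DBI. It was at least 12.4-fold lower at 9 than at 14 DBI (edgeR, adjusted p = 0.0394) and at least 12.5-fold higher at 0 than at 9 DBI (adjusted p = 0.041). After induction it reached 153 and 117 CPM at 2 DAI and was at 25.3 and 45.5 CPM at 21 DAI.

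Cc02_g32420 on chromosome 2 had 1.51 and 0.492 CPM at 14 DBI, 0 at 9 DBI, and 4.31 and 2.39 CPM at 0 DBI. It was at least 6.86-fold lower at 9 than at 14 DBI (edgeR, adjusted p = 0.0468) and at least 22.9-fold higher at 0 than at 9 DBI (adjusted p = 0.0283). Cc02_g17940, on the same chromosome, had 0.46 and 1.36 CPM, then 0 and 0, then 1.25 and 1.56 CPM. It was at least 9.62-fold higher at 0 than at 9 DBI (edgeR, adjusted p = 0.0283). These 4 genes rest on few reads, from 109 to 210 over the 6 libraries before induction. Over the 18 alternatives tried each kept its direction, which the lack of any read at 9 DBI largely fixes in advance. Each was lost in 8 to 11 of these alternatives, with the adjusted p of edgeR or DESeq2 at most 0.124.

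The remaining genes called from 14 to 9 DBI were Cc02_g17940, Cc06_g17390, Cc05_g06140 and Cc05_g02420. Of these, Cc06_g17390, Cc05_g06140 and Cc05_g02420 each had 1 read at 9 DBI, and they were called from 9 to 0 DBI as well. Cc05_g06150 was called from 9 to 0 DBI alone, with 1 read at 9 DBI and 82 and 87 reads at 0 DBI. Cc05_g02420 had the most reads of the group outside 9 DBI, with 94 and 38 at 14 DBI and 102 and 168 at 0 DBI. The gene of the F test was Cc05_g06140 (edgeR, adjusted p = 0.0339).

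In some genes a single library or pair of libraries before induction stood far above the rest. In 18 of the 91 genes the highest DBI library was at least 4 times the median of the 6, a count not made over all genes. In 8 of these it was replicate 2 of 0 DBI, which was the highest DBI library for 47.3% of all 91 genes. Cc10_g14500, named here for its values, had 67.1 and 2.12 CPM at 14 DBI, 1.07 and 0.402 CPM at 9 DBI, and 0.327 and 67.3 CPM at 0 DBI. Cc08_g14230 had 50.3 CPM in replicate 2 of 14 DBI and 50.1 CPM in replicate 2 of 0 DBI, and at most 5.33 CPM in the other 4 libraries. Cc10_g12960 had 24.8 CPM in replicate 1 of 0 DBI and at most 1.85 CPM elsewhere before induction. In these genes the highest library, and not the usual level, set the ratio. After induction Cc08_g14230 was at 679 to 1449 CPM and Cc10_g14500 at 316 to 1363 CPM.

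By contrast, some genes were well expressed in each library before induction. Cc03_g08480 had 45.6 to 98.2 CPM before induction (median 71.2) and 410 to 1055 CPM after it (median 536). Cc04_g06930 had 4.27 to 18.3 CPM before induction and 78.8 to 107 CPM after it. At the other end, Cc03_g14110 had 1 read in all before induction and 2.18 to 7.04 CPM after it, and Cc09_g02710 had 3 reads before it and 1.88 to 5.04 CPM after it. These 4 genes were named after their values were seen, and they show how far the same ratio reaches over levels of expression.

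After induction the order of the time points differed between the genes. The highest mean was that of 1 DAI for 29 genes, of 2 DAI for 32 and of 21 DAI for 30. The lowest was that of 1 DAI for 28, of 2 DAI for 21 and of 21 DAI for 42. All 6 orders of the means occurred. These orders describe means of 2 libraries each, and they were not counted over all genes. A fall from 1 to 2 to 21 DAI was seen in the means of 21 genes, 2 DAI lay highest and 21 DAI lowest in another 21, and a climb from 1 to 2 to 21 DAI was seen in 17. The remaining 3 orders held 8, 11 and 13 genes. The ratio of the highest to the lowest mean had a median of 2.05, lay under 2 in 45 genes and was smallest in Cc08_g07280 (1.11), whose libraries held 47.4 to 81.1 CPM.

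The median differences over the 91 genes were close to those over all genes tested. In log2(CPM + 0.5), they were 0.10 from 1 to 2 DAI (0.14 over all genes) and -0.14 from 2 to 21 DAI (-0.14 over all genes). Both libraries of 21 DAI lay below the other 4 of the stage in 23 of the genes (25.3%), against 18.1% of the 17465 tested genes whose DAI means differed by less than 4-fold. Both lay above the other 4 in 14 genes (15.4%, against 12.3%). For 1 DAI, 15 genes lay above (16.5%, against 13.2%) and 14 below (15.4%, against 15.3%). For 2 DAI, 10 lay above (10.99%, against 12.3%) and 7 below (7.69%, against 3.75%).

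In edgeR's test, 0 of the 91 genes changed from 1 to 2 DAI, where 0.0% of all genes tested did, and 1 had an unadjusted p under 0.05. From 2 to 21 DAI 0 changed as well, where 1.33% of all genes did (0.559% higher, 0.766% lower), or 0.0916% of those with DAI means within 4-fold, and 8 had an unadjusted p under 0.05. These unadjusted counts compare with 8.48% and 15.6% of all genes. DESeq2 called 0 and 2 of the 91 in these comparisons, and 1.02% and 8.04% of all genes. The share of all genes called from 2 to 21 DAI itself depends on single libraries, with 0 genes called without replicate 1 of 21 DAI, 4 without replicate 1 of 2 DAI, and 3.33% without either library of 9 DBI. The F test over the 3 time points after induction called 0 of the 91 (3.56% of all genes, 0.452% of those within 4-fold), with 7 at an unadjusted p under 0.05 (20.7% of all genes) and 5 called by DESeq2 (13.4% of all genes). As the rule limits the differences between these time points, a low count was set in part by the choice of the genes. The fitted changes ran from -1.84 to 1.69 on the log2 scale from 1 to 2 DAI and from -1.80 to 2.32 from 2 to 21 DAI. Their median standard error was 0.96 in both, so that a change of 4-fold came to about 2 standard errors. Changes of this size or smaller were mostly not detectable at the adjusted p used. The counts of 0 therefore do not show that the levels were equal. The smallest adjusted p was that of Cc02_g11960 from 2 to 21 DAI (edgeR, 0.099), a gene at 37.6 and 40.4 CPM at 1 DAI, 30.8 and 35.5 CPM at 2 DAI, and 107 and 134 CPM at 21 DAI.

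Position on the genome was not used by the rule. In the AUK_PRJEB4211_v1 annotation, whose locus tags matched all 25574 identifiers, 84 of the 91 genes lie on the 11 numbered chromosomes and 7 on unplaced sequences (7.69%, against 14.1% of all genes). Chromosome 2 held 18 of them, chromosome 6 held 13 and chromosome 5 held 10. Relative to the genes on each chromosome, the share was highest on chromosome 9 (8 of 1094, 0.731%) and lowest of the numbered ones on chromosome 3 (3 of 1632, 0.184%). The genes were somewhat short, with a median span of 2078 bp, introns included, against 2788 bp over all genes. A span under 1000 bp was found in 18 of them (19.8%, against 15.6%).

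Members of the set often lay near each other. Another of the 91 genes lay within 5 genes on the same sequence for 16 of them (17.6%), whereas 3.05% of the other genes had 1 of the 91 within this distance. At a distance of 1 gene it was 6 genes, against 0.655% of the other genes, and within 10 genes it was 21, against 5.82%. The 16 genes form 7 groups, 1 of 4 genes and the rest pairs.

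The group of 4 consists of direct neighbours on chromosome 5, Cc05_g06140, Cc05_g06150, Cc05_g06160 and Cc05_g06170, with spans of 270, 450, 551 and 455 bp. Cc05_g06170 is the gene with the widest gap of all. Cc05_g06140 had 133 and 180 CPM at 1 DAI, 58.8 and 86.02 CPM at 2 DAI, and 46.4 and 87.8 CPM at 21 DAI. Cc05_g06150 had 171 and 232, then 138 and 105, then 118 and 116 CPM. Cc05_g06160 had 358 and 402, then 410 and 189, then 235 and 157 CPM. All 4 had their highest mean at 1 DAI and their lowest at 21 DAI. Before induction all 4 were at 0 to 0.0894 CPM at 9 DBI and at 0.507 to 21.1 CPM at 0 DBI. At 14 DBI they differed, with Cc05_g06170 at 0 in both libraries and the other 3 at 0.265 to 2.04 CPM. In the test, 2 of them, Cc05_g06140 and Cc05_g06150, are among the genes called higher at 0 than at 9 DBI. The value of 21.1 CPM belongs to Cc05_g06160 in replicate 1 of 0 DBI, where its other replicate had 1.59 CPM. Whether these short neighbours are copies of each other was not tested. Reads that fit more than 1 copy could have been left out or counted for the wrong one, and their values are uncertain to that extent.

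The 6 pairs were Cc01_g16280 with Cc01_g16330, Cc02_g17930 with Cc02_g17940, Cc02_g27000 with Cc02_g27030, Cc04_g15400 with Cc04_g15420, Cc06_g01070 with Cc06_g01100, and Cc07_g13910 with Cc07_g13930. Only Cc02_g17930 and Cc02_g17940 are direct neighbours. Between the members of the other pairs lie 10 genes in all. Of these, 3 had a ratio over 1 (Cc01_g16290, Cc02_g27010 and Cc06_g01080), as had 6.35% of all genes, and none reached 4. Cc01_g16280 had 0.0447 to 7.93 CPM before induction and 124 to 193 CPM after it. Its partner Cc01_g16330, 4 genes further on, had 0 to 6.77 CPM before induction and 103 to 207 CPM after it. Of the genes between them, Cc01_g16310 was at 41.4 to 91.2 CPM before and 31.5 to 59.8 CPM after induction. On chromosome 4, Cc04_g15400 (0 to 0.545 CPM before, 44.3 to 112 CPM after) and Cc04_g15420 (0 to 7.69 CPM before, 55.9 to 117 CPM after) enclose Cc04_g15410, which was at 58.0 to 112 CPM before and 106 to 178 CPM after. The largest ratio of a gene in between was that of Cc01_g16290 (2.33), which had 0.600 to 6.01 CPM before and 14.7 to 57.1 CPM after induction.

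**Figure D5:**
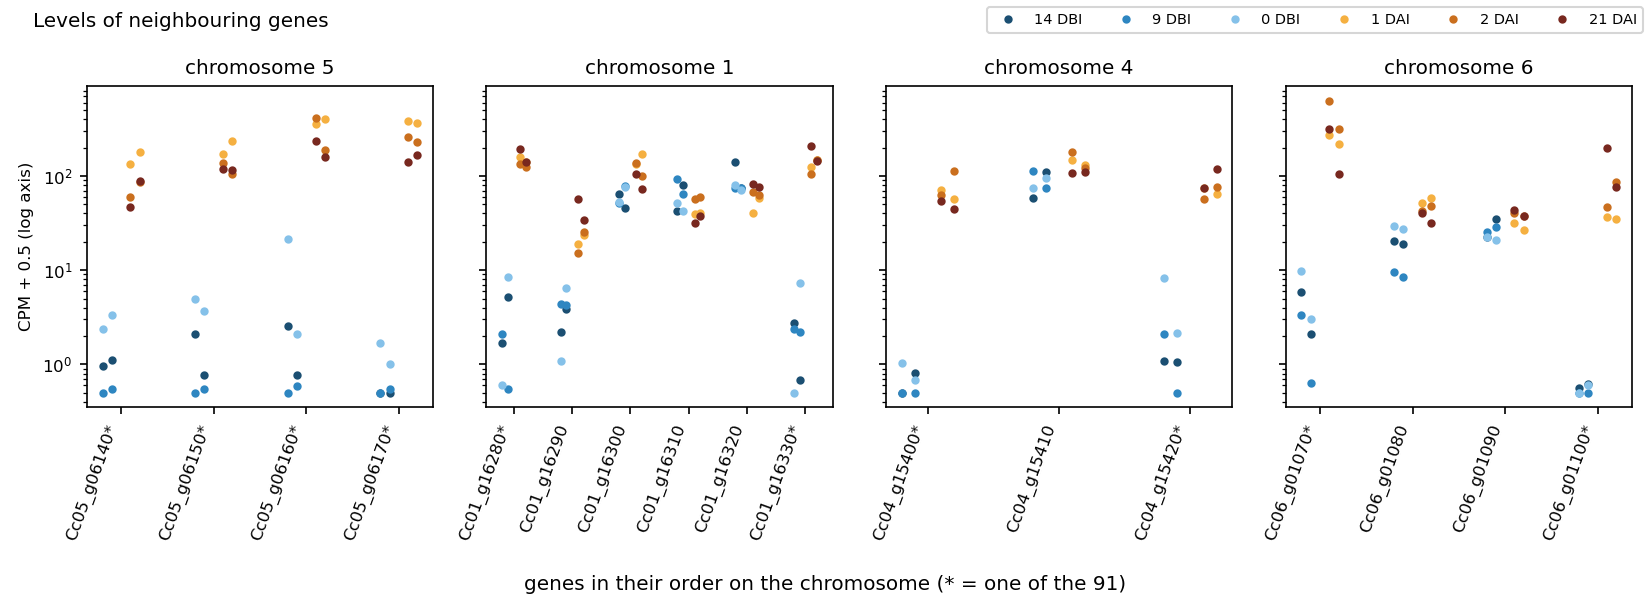
Levels of neighbouring genes in 4 places of the genome (CPM + 0.5, log axis; 1 point per library, coloured by time point, DBI to the left and DAI to the right of each gene; an asterisk marks 1 of the 91 genes). The marked genes have their DBI and DAI points apart. Of the genes between them, the points of Cc01_g16310 and Cc04_g15410 overlap, and those of Cc01_g16290 and Cc06_g01080 do not.

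The study was centred on the *CcGH3* family, a family of enzymes that join hormones, mainly auxin, to amino acids. None of its 18 genes is among the 91 (0 of 18, where 0.356% of all genes are). The largest ratio in the family was that of *CcGH3.17d*, 1.94, with at least 18.4 CPM after induction and at most 9.23 CPM before it. The other 17 had ratios under 1. For *CcGH3.6a*, with at most 0.0545 CPM before induction and 0 in its lowest library after it, the 0.5 CPM added set the ratio.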

How the data were processed

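Leaf and leaf explant RNA of *C. canephora* was sequenced in 12 single-end libraries, 2 at each of 6 time points, grouped by the time point in the labels. The authors deposited 1 table of whole-number read counts per library, not normalized, for 25574 genes and 5 lines of unassigned reads. The submitters' processing notes name FastQC 0.11.5, cutadapt 1.14 and HTSeq 0.10.0. Which aligner, strand setting and genome build were used is not given in the sources used here, so no coordinates are printed. Overlapping or near-identical genes could have lost reads or received those of another. The unassigned lines were left out, and 29.2% to 59.9% of the reads lay in genes.

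CPM was the count divided by the sum over genes. The members and all lists were chosen with earlier results of these data known. Tests used edgeR 4.0.16 in R 4.3.3 (filterByExpr, TMM, 1 quasi-likelihood fit over the 12 libraries with time point as factor) and with Benjamini-Hochberg adjustment over 20745 genes. The common biological coefficient of variation was 0.587. Tables and figures were made in Python 3.11.15, and the steps were tested on simulated counts. DESeq2 1.42.0, other size factors, no filter, a replicate block, a term for low mapping quality and each library left out were the alternatives. Within a time point the libraries differed beyond sampling noise (chi-square per degree of freedom 33.4 to 299.7). They were therefore not summed and entered the fit as 2 libraries per time point. The design text gives them as sequencing replicates of 1 biological sample, and the source of this spread was not tested.

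The text names the 10 genes with the largest ratio, up to 3 called genes per comparison and direction by fold change, the genes at both limits of the rule, and the largest groups of neighbours, where pairs tied. Other genes are said to be named after their values were seen. A rank by level per coding length, protein similarity and signatures, promoter motifs, keyword lists and leaf markers were part of the plan and were not applied, since no sequence, coding length or description was used here.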

Additional observations from a re-analysis of the deposited data

How the results depend on the processing

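The rule took 140 genes at a ratio of 3 and 41 at a ratio of 8. It took 177 and 180 on replicate 1 or 2 alone, and 156 on the 8 libraries with less than 15% of reads at low mapping quality. A pseudocount of 0.1 gave 108 and of 1 gave 79, TMM library sizes 83, no limit on the DAI means 112, and leaving out 1 library 91 to 118 (118 without replicate 2 of 0 DBI). Of the 91 genes, 41 were kept at a ratio of 8, 79 with a pseudocount of 1, and 81 to 91 in each of the others.

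Of the 91 genes, 7 were called from 14 to 9 DBI. This became 3 with DESeq2's size factors in edgeR (0.26% of all genes) and 23 in DESeq2 (7.61%). It became 1 with a term for low mapping quality (0.0819%), and 0 to 10 with 1 library left out (0% to 3.21%). The 7 called from 9 to 0 DBI became 11 without the filter (0.495% of all genes) and 27 in DESeq2 (5.34%). They became 1 with the low mapping quality term (0.00482%), and 0 to 14 with 1 library left out (0% to 2.53%). The F test before induction called 1 gene, and called 3 with library size alone (0.0819% of all genes) and 9 without the filter (0.273%). It called 28 in DESeq2 (5.41%) and 0 to 10 with 1 library left out (0% to 0.787%). From 2 to 21 DAI the count of 0 became 2 in DESeq2 and 0 to 1 with 1 library left out, and in the F test after induction 5 and 0 to 1. From 1 to 2 DAI it was 0 in each alternative. The cause of these shifts was not tested. Over all genes tested, the median log2 change from 9 to 0 DBI was 0.17 with TMM and 0 with library size alone, and from 2 to 21 DAI 0.01 and -0.14.

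With a replicate block, 0 of the 91 genes were called from 14 to 9 DBI and 1 from 9 to 0 DBI, and the other 4 tests kept their counts. The numbers were not taken to pair all samples, since 5 of the 15 correlations between the deviations of same-numbered libraries were over 0.1 (range -0.0544 to 0.386). Those 5 lie among 14 DBI, 0 DBI, 2 DAI and 21 DAI, where replicate 1 has the high share of low mapping quality, so that the number does mark a shared structure there. Few reads before induction limit the lower end of the ratios, and 2 libraries per time point limit the tests.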
